A study of Mus musculus with 2 samples.

Results

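Tumor neutrophils were taken as cells in which S100a8 and S100a9 together made up 0.5% or more of the cell's unique molecular identifiers (UMIs, each counting 1 captured RNA molecule), with fewer than 3 UMIs of the macrophage genes C1qa, C1qb and C1qc and none of the T cell genes Cd3d, Cd3e, Cd3g and Trac. The rule kept 185 neutrophils of 4403 cells, 19 of 1442 in the WT library and 166 of 2961 in the TSK library. The members were thus chosen by their S100a8 and S100a9 values, which are given as a description.

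The data are 2 single-cell RNA sequencing libraries of subcutaneous tumors from female C57BL/6 mice aged 6 to 8 weeks, injected in the flanks with 1000000 cells a site of SO, a mouse ovarian cancer line syngeneic to this strain. Tumors were digested with enzymes, red and dead cells were depleted, and no cell type was sorted. Each library pools the tumors of 4 mice, from WT mice in the first and from mice heterozygous for TSK in the second. TSK (tight skin) is a germline duplication inside the fibrillin-1 gene Fbn1 (chr2:125300594-125507993, minus strand, GRCm38), so every cell of the host carries it. With 1 library per genotype there is no replicate and no test: the genotype cannot be told apart from the pool of mice and the library, and the intervals given below are 95% intervals for counting error only.

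Neutrophils are short-lived granulocytes made in the bone marrow under granulocyte colony-stimulating factor, drawn into tissue by chemokines that act on the receptor Cxcr2, and loaded with granules of proteases and antimicrobial proteins that are made in order as the cell matures. Their cytosol is filled with the calcium-binding proteins S100a8 and S100a9. In tumors they are known both for killing functions, such as the oxidative burst, and for inflammatory and immune-suppressive products, among them interleukin-1, CCL3, CCL4 and PD-L1.

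The libraries held 2332 (WT) and 4436 (TSK) barcodes with 21225411 and 48296765 UMIs. They shared 263 barcodes, which were left out and of which none met the neutrophil rule. Ribosomal protein genes took a lower share of the UMIs in WT than in TSK in every class of cells compared, with 10.8% and 18.3% in T cells, 6.27% and 12.0% in C1q macrophages and 1.07% and 10.6% in neutrophils. Per neutrophil the share ran from 0.565 to 2.21% in WT with a median of 1.00%, and from 1.86 to 28.5% in TSK with a median of 4.12%. The part of this difference in the ratios below was not tested.

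The neutrophil label was checked against Csf3r, Cxcr2 and Il1b, which the rule did not use. Csf3r, the receptor for granulocyte colony-stimulating factor, had a UMI in 84.2% of WT and 68.1% of TSK neutrophils. Cxcr2 was seen in 68.4% and 48.8%, and Il1b, which encodes interleukin-1β, in 100% and 89.2%. The same genes were rare in T cells, with Csf3r in 0.641% (WT) and 0.355% (TSK) and Il1b in 2.35% and 3.55%. T cells were deeper, at medians of 6911.5 and 3179.5 UMIs against 3715 and 2026.5 in neutrophils. Csf3r and Il1b were not rare in other myeloid cells. Monocyte-like cells held Csf3r in 38.1% and 16.7% and Il1b in 71.0% and 78.1%, and C1q macrophages in 37.4% and 24.2% and in 57.2% and 35.0%. Only Cxcr2 was rare in both, at 1.94% and 1.04% in monocyte-like cells and 0.535% and 0% in macrophages. After every cell was thinned to 500 UMIs, Csf3r remained in 52.6% and 36.7% of neutrophils, Il1b in 84.2% and 73.5% and Cxcr2 in only 26.3% and 17.5%. Thinned monocyte-like cells held Csf3r in 5.81% and 3.13% and Il1b in 31.0% and 47.9%. In thinned C1q macrophages the shares were 3.21% and 2.20% for Csf3r and 15.5% and 10.7% for Il1b. Neither of these classes held Cxcr2 after thinning. Ly6g, the surface protein behind the usual neutrophil antibody, was found in 12 TSK cells with 21 UMIs and in none of the 19 WT cells, a level of 41.0 CPM (UMIs of the gene per 1000000 UMIs) against an upper limit of 41.3 CPM that a count of 0 in WT allows, so a difference was not detectable at this depth.

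The genes that stood highest over all other kept cells in both libraries were, after S100a9 and S100a8 themselves, Stfa2l1, Wfdc21, Il1f9, Cstdc4, Cxcr2, Mirt2, G0s2, Hdc, Hcar2, Acod1, Fpr1, Cc2d2b and Slfn4. The smaller of the ratios in WT and TSK ran from a log2 ratio of 9.62 for Stfa2l1, a cysteine protease inhibitor of the stefin family, to 6.45 for Slfn4. Stfa2l1 and Cstdc4 belong to a family of near-identical copies, so reads may be split among its members. Hdc, the enzyme that makes histamine, stood at 2448 CPM in WT and 1178 CPM in TSK neutrophils against 12.4 and 5.65 CPM in the other cells. G0s2, an inhibitor of fat breakdown, was at 1692 and 1615 CPM against 7.24 and 5.47. Acod1, which makes the metabolite itaconate, was at 4222 and 2419 CPM against 34.4 and 16.6, and Fpr1, a receptor for bacterial formyl peptides, at 206 and 250 CPM against 1.76 and 1.64. S100a8 (chr3:90668978-90670035, plus strand) and S100a9 (chr3:90692632-90695721, minus strand) lie side by side on chromosome 3. Of their UMIs in kept cells 93.8% (WT) and 93.2% (TSK) fell in the neutrophils, which held 0.426% and 1.12% of all UMIs. The rule picks cells by these 2 genes, so these shares follow largely from it and do not measure how specific the genes are.

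Markers of other cell types were unevenly present. A UMI was found of all 12 macrophage, all 8 fibroblast and 9 of 10 monocyte markers, of 5 of 7 MHC class II genes, 4 of 9 dendritic, 3 of 6 eosinophil, 2 of 7 endothelial and mural, 2 of 7 erythroid and 2 of 5 platelet markers. Of 12 T and NK cell markers 11 had no UMI in any neutrophil, 4 of them by the rule itself, as had 7 of 8 basophil and mast cell markers and 4 of 7 B and plasma cell markers. Monocyte markers summed to 660.1 CPM in WT and 884 CPM in TSK and were found in 10 of 19 and 85 of 166 cells, fibroblast markers to 55.0 and 170 CPM, and macrophage markers to 165 and 271 CPM, the last found in 9 of 19 and 78 of 166 cells. Most UMIs of the monocyte sum in TSK were of 1 gene, Fn1, and 33.1% of these came from 1 cell. In WT only 2 cells held Fn1, so the 2 sums do not show more monocyte signal in TSK. MHC class II genes summed to 179 and 68.3 CPM, with Cd74 in 3 WT and 16 TSK cells. The list that differed most was that of cancer cells, which summed to 13.8 CPM in WT and 696 CPM in TSK, with 124 UMIs of Lgals7, 142 of Cdkn2a, 89 of Krt18 and 2 of Krt19 in TSK.

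This signal lay in a small group of deep TSK cells. Neutrophils ran from 1425 to 5987 UMIs in WT and from 526 to 62655 in TSK, where 7 cells lay above 6000 UMIs and held 34.7% of all TSK neutrophil UMIs. Those 7 cells had a median of 18666 UMIs, a median S100a8 and S100a9 share of 1.03% and 22.3% ribosomal UMIs, and 4 of them carried 3 or more UMIs of the cancer markers, as did none of the other 159 TSK cells or the WT cells. Krt18, a keratin, stood at 478 CPM in the deep cells and 12.0 CPM in the others, and Cdkn2a at 731 and 35.9 CPM. All 7 also held a UMI of Csf3r, Cxcr2 or Il1b, as did 150 of the 159 and all 19 WT cells. At such depth 1 UMI of any of 3 genes is easily reached, so this count does not settle the label of the deep cells. Levels of these genes were lower in the deep cells than in the other TSK cells. Csf3r was at 219 against 804 CPM, Cxcr2 at 141 against 421 and Il1b at 1298 against 5261. No doublet caller was run. Values without these deep cells stand beside the gene group results and most named genes past 2-fold, and neutrophil shares under an upper limit of 10000 UMIs were 2.07% in WT and 9.47% in TSK.

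**Figure D1:**
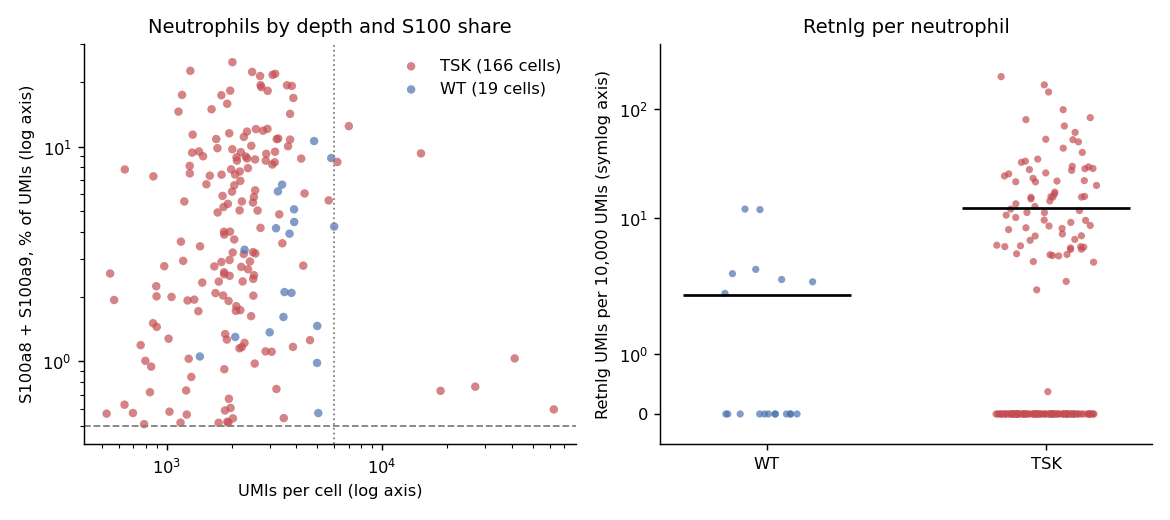
Left, each point is 1 neutrophil, with its UMIs on the x axis and its S100a8 and S100a9 share in percent on the y axis, both on log axes. The dashed line marks the 0.5% threshold and the dotted line 6000 UMIs, above which only 7 TSK cells lie. Right, Retnlg UMIs per 10000 UMIs in each neutrophil of the libraries on a symmetric log axis, with the mean of the cells as a black line: the WT cells reach 12.0, and the highest TSK cells lie above them.

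Neutrophils made up 1.32% of kept cells in WT (0.795 to 2.05%, exact binomial interval) and 5.61% in TSK (4.80 to 6.50%), a ratio of 4.25 (2.64 to 7.25). The ratio was 6.12 (3.70 to 10.7) among cells with a UMI of the leukocyte gene Ptprc, where neutrophils made up 1.90% and 11.6%, and 5.89 (3.65 to 10.0) among cells with fewer than 3 UMIs of Lgals7, Krt18 and Krt8. Counted against T cells, there were 0.0406 neutrophils per T cell in WT (0.0242 to 0.0641) and 0.589 in TSK (0.483 to 0.716). The WT library held more T cells, 468 against 282, so both sides of this ratio differed. Against C1q macrophages the numbers were 0.102 and 0.457, and against monocyte-like cells 0.123 and 1.73. A share of kept cells cannot tell more neutrophils from fewer cells of other types.

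Cells with markers of other types rarely reached the S100 threshold. Among cells with 2 or more Cd3 UMIs, 0 of 470 in WT (which allows a share of up to 0.638%) and 1 of 290 in TSK reached 0.5%, although 1.06% and 11.4% of them held a UMI of S100a8 or S100a9. Of cells with 3 or more C1q UMIs, 0 of 193 and 0 of 377 reached it, which allows up to 1.55% and 0.796%. In cells with 3 or more UMIs of Lgals7, Krt18 and Krt8 it was 0 of 99 and 6 of 1017. This last set was not cleared of neutrophils. Of the 166 TSK neutrophils 162 had fewer than 3 such UMIs, and the rest are among these 6 cells. The WT values closest to the threshold were 0.574% inside and 0.479% outside, and those in TSK 0.510% and 0.472%.

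**Figure D2:**
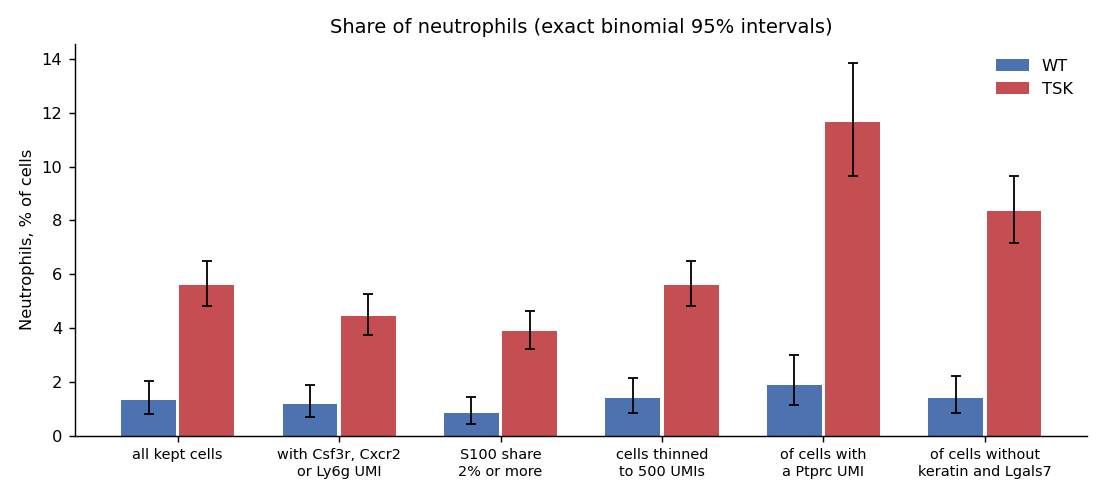
Neutrophils as a percent of cells in the WT (blue) and TSK (red) libraries under 6 ways of counting them, as bars with exact binomial 95% intervals. TSK is higher under each, from 3.88% against 0.832% at an S100 share of 2% or more to 11.6% against 1.90% among cells with a Ptprc UMI.

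The RNA content of the neutrophils differed between libraries. The median WT neutrophil held 3715 UMIs from 932 genes and the median TSK neutrophil 2026.5 UMIs from 767.5 genes, with 0.817% and 0.570% mitochondrial UMIs. T cells, C1q macrophages and monocyte-like cells were deeper in WT as well, at medians of 6911.5 against 3179.5, 13203 against 7953 and 9228 against 5039 UMIs, so a lower depth in TSK was not particular to neutrophils. The S100a8 and S100a9 share ran from 0.574 to 10.6% in WT with a median of 3.31%, and from 0.510 to 24.7% in TSK with a median of 3.95%. Cells at 5% or more were 26.3% of WT and 47.0% of TSK neutrophils. The level of S100a8 over all neutrophils was 14894 CPM in WT (14020 to 15808) and 25065 CPM in TSK (24633 to 25502), and that of S100a9 24755 and 27977 CPM.

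Levels in neutrophils were compared between libraries as the log2 ratio of summed CPM, TSK over WT, for genes with at least 50 UMIs over both libraries. Of 1634 such genes 34.1% were 2-fold or more higher in TSK, 30.2% with an interval that also left out 0, and 15.3% were 2-fold or more lower, all with such an interval. The median gene stood at 0.18, and 45.9% of genes lay below 0. Without the deep cells the shares were 20.7% and 11.7% of 1103 genes, and the median was 0.01. These shares are the background against which the counts of each gene group are set. The 2 sums rest on 72714 WT and 512635 TSK UMIs, so the WT side sets most of the counting error.

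**Figure D3:**
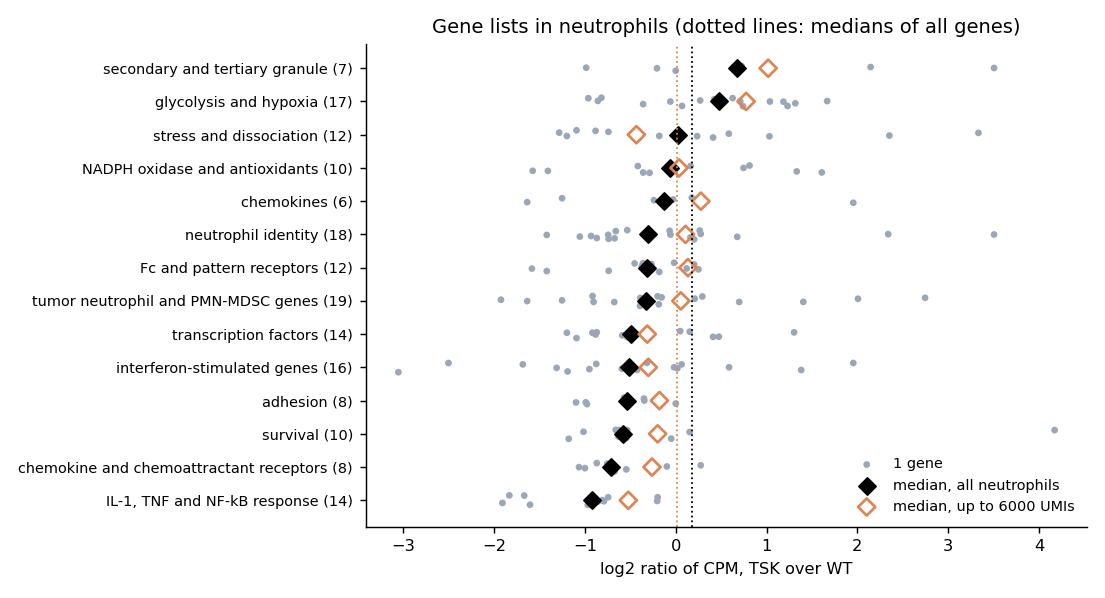
Log2 ratio of CPM in neutrophils, TSK over WT, for gene lists with 5 or more genes at 50 UMIs (number in brackets). Grey points are genes, black diamonds the median over all neutrophils and open orange diamonds the median without cells over 6000 UMIs, and dotted lines the medians of all genes, 0.18 and 0.01. The IL-1, TNF and NF-kB list lies lowest with medians of -0.92 and -0.52, and the secondary and tertiary granule list highest with 0.68 and 1.02.

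Inflammatory cytokines and targets of NF-kB were lower in TSK neutrophils. Of 17 members 14 reached 50 UMIs. These 14 lay below 0, with a median of -0.92, and 4 were 2-fold or more lower, beside 15.3% of all genes, and none higher. Without the deep cells 12 of 14 lay below 0 with a median of -0.52, and again 4 were 2-fold lower, beside 11.7% of all genes. Nlrp3, the sensor of the inflammasome that activates interleukin-1β, was at 2998 CPM in WT (2613 to 3424) and 843 CPM in TSK (765 to 926), a log2 ratio of -1.83 (-2.07 to -1.59), or -1.36 without the deep cells. Per 10000 UMIs the WT cells ran from 0 to 102 Nlrp3 UMIs with a median of 30.0, and the TSK cells from 0 to 75.7 with a median of 7.02. The medians lay apart, while the ranges and the middle parts of the cells overlapped. Osm, a cytokine of the interleukin-6 family, was at 688 and 183 CPM (-1.91, or -1.51 without the deep cells), and Zfp36, which destabilizes cytokine mRNAs, at 2132 and 671 CPM (-1.67 and -1.36). Tnf was the last of the 4, with 25 and 58 UMIs (-1.60 and -1.09). Il1b itself was at 6505 CPM in WT and 3886 in TSK, a log2 ratio of -0.74 (-0.89 to -0.60) that became -0.31 without the deep cells. Il1rn, the antagonist of the interleukin-1 receptor, and Il1r2, its decoy receptor, stood at -0.81 and -0.93, or -0.37 and -0.56 without the deep cells.

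In C1q macrophages of the same libraries the median of the 14 genes was -0.14, against 0.10 for the genes of the background. Nlrp3 was at -0.22 in macrophages (-0.41 to -0.03), Osm at -0.03 (-0.33 to 0.27) and Zfp36 at -0.30 (-0.42 to -0.19), and none of these intervals overlapped that of the same gene in neutrophils. Tnf was at -0.44 (-0.83 to -0.06), just above its neutrophil interval (-2.30 to -0.87), which without the deep cells reached -0.35. Il1b was as low in macrophages, at -0.70 (-0.83 to -0.57), as over all neutrophils, and Il1r2 stood at -1.21 in macrophages. Without the deep cells Il1b in neutrophils was at -0.31 (-0.45 to -0.16), above its macrophage interval. Monocyte-like cells went the other way for Il1b, with 855 CPM in WT and 1351 CPM in TSK, so its direction was not shared by all myeloid cells. Over all kept cells other than neutrophils Nlrp3 was at -1.19, Osm at -1.96 and Tnf at -2.64, a sum in which the mix of cell types differs between libraries. A difference between cell types across libraries was not tested.

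Among the chemokines, which draw other leukocytes, the members moved apart. Of 16 on the list 6 reached 50 UMIs. Ccl4 and Ccl3 were 2-fold lower and Cxcl10 2-fold higher, beside 15.3% and 34.1% of all genes. Cxcl2 was near equal over all cells. Ccl4 stood at 5639 CPM in WT (5106 to 6212) and 1816 CPM in TSK (1701 to 1937), a log2 ratio of -1.63 (-1.80 to -1.46), and Ccl3 at 3699 and 1555 CPM (-1.25, -1.45 to -1.05). Without the deep cells Ccl4 stayed past 2-fold at -1.20 and Ccl3 did not at -0.78. Ccl4 had a UMI in 13 of 19 WT cells and in 70 of 166 TSK cells, and its highest cell gave 18.3% of the WT and 8.49% of the TSK UMIs. In macrophages both had the opposite sign, Ccl4 at 0.50 (0.36 to 0.65) and Ccl3 at 0.67 (0.37 to 0.97). Cxcl2, the ligand of Cxcr2, was at 16407 CPM in WT (15489 to 17365) and 16086 CPM in TSK (15740 to 16437), a log2 ratio of -0.03 (-0.12 to 0.06) that was 0.48 (0.39 to 0.56) without the deep cells. It was found in all 19 WT cells and in 161 of 166 TSK cells. Cxcl10, an interferon-induced ligand that draws T cells, had 6 UMIs in 1 WT cell and 164 UMIs in 20 TSK cells, so its ratio of 1.95 (2.39 without the deep cells) rests on a few cells.

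The promoters of 6 genes the results turn on are shown to set the sequence beside the values: S100a9 from the rule, Retnlg and Mmp8, which were higher in TSK, Cxcl2, near equal over all cells, Cxcl10, and Ccl3, which was lower. Each run gives the 250 bases before the RefSeq start on the gene's strand in GRCm38.p6, from S100a9 (chr3:90695722-90695971, minus), Retnlg (chr16:48872358-48872607, plus), Mmp8 (chr9:7558179-7558428, plus), Cxcl2 (chr5:90903649-90903898, plus), Cxcl10 (chr5:92348890-92349139, minus) and Ccl3 (chr11:83649379-83649628, minus). Capitals mark matches on either strand to TTNNGCAA, the pattern of the C/EBP factors of granulocyte genes, or to an NF-kB pattern of 10 bases that begins GGG, has TT as the sixth and the seventh base and ends CC. The genes were picked after their values were seen, and the last bases of the Cxcl2 window lie past the start that GENCODE gives.
S100a9: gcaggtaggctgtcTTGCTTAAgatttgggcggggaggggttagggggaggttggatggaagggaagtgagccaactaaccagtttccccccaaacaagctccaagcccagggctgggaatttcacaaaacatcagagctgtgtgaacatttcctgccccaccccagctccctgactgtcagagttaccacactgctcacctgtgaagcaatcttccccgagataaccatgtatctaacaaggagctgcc
Retnlg: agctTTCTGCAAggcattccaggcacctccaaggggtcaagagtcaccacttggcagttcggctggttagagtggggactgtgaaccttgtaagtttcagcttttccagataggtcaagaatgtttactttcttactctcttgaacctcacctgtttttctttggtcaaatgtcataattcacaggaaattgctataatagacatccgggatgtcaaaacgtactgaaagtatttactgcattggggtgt
Mmp8: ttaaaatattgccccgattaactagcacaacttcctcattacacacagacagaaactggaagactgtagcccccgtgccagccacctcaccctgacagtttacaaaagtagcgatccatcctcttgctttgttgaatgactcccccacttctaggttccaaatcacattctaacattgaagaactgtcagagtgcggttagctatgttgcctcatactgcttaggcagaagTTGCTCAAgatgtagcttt
Cxcl2: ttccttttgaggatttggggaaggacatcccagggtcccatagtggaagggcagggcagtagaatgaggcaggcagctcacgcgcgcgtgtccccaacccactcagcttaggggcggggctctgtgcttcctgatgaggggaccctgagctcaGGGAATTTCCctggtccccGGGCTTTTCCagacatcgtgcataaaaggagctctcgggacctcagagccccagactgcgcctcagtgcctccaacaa
Cxcl10: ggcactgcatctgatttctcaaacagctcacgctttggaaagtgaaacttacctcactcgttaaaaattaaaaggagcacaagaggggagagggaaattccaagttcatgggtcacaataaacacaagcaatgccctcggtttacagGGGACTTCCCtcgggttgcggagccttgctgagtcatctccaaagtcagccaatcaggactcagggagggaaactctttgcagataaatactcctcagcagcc
Ccl3: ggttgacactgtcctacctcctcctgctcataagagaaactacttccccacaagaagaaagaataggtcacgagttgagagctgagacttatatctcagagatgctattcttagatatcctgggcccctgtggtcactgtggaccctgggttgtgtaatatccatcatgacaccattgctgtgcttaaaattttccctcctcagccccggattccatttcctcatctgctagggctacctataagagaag

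S100a9, Retnlg and Mmp8 each held 1 C/EBP match, Cxcl2 2 and Cxcl10 1 NF-kB match, and Ccl3 neither. In the same window 9.56% of all 32851 RefSeq promoters held a C/EBP and 4.11% an NF-kB match. Of the listed genes that were 2-fold lower in TSK, 2 of the 20 with a promoter given held an NF-kB and 1 a C/EBP match, and of those 2-fold higher 1 of 23 held an NF-kB and 3 a C/EBP match. A match describes the letters in a window and no binding.

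Genes of the secondary and tertiary granules are made late in neutrophil maturation. Of 16 members 7 reached 50 UMIs and had a median of 0.68, or 1.02 without the deep cells, with none 2-fold lower. Adam8, at -0.99, was just short of 2-fold lower, and Lyz2 stood at -0.21. These 2 were the members below 0, and without the deep cells 1 member was. Over all cells 2 of the 7 were 2-fold higher, a share no larger than the 34.1% of all genes, and without the deep cells 4 of 7 were, beside 20.7% of all genes. Wfdc21, an antimicrobial protein secreted by neutrophils, was at 151 CPM in WT (75.5 to 271) and 669 CPM in TSK (600 to 744), a log2 ratio of 2.15 (1.29 to 3.16), or 2.52 without the deep cells. Mmp8, the neutrophil collagenase, had 1 UMI in the 19 WT cells and 80 UMIs in 33 TSK cells, a ratio of 3.50 with an interval from 0.98 to 8.83, or 3.75 without the deep cells. Lcn2, the iron-withholding lipocalin, was at 344 and 568 CPM (0.72, 0.13 to 1.38), and Mmp9, a gelatinase, at 151 and 242 CPM with an interval that includes 0 (-0.21 to 1.72). Leaving out the deep cells gave 1.02 and 1.08. Early granule genes were nearly silent: Elane, Ctsg and Ms4a3 had no UMI. Srgn, the core of the proteoglycan that packs granules, was found in all 19 WT and 162 TSK cells at 9847 and 4801 CPM, a ratio of -1.04 that was -0.60 without the deep cells.

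Retnlg, a secreted resistin-like protein of neutrophils (chr16:48872621-48874496, plus strand), was higher in TSK, as were the granule genes Wfdc21 and Mmp8. It stood at 248 CPM in WT (147 to 391) and 1252 CPM in TSK (1157 to 1353), a log2 ratio of 2.34 (1.67 to 3.10), or 2.63 without the deep cells. In WT 7 of 19 cells held a Retnlg UMI, the highest with 12.0 per 10000 UMIs, and in TSK 79 of 166, of which the highest gave 9.97% of the TSK Retnlg UMIs. In both libraries more neutrophils lacked Retnlg than held it, 12 and 87.

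The TSK cells with much S100a8 and S100a9 held most of this. Among cells of up to 6000 UMIs, Retnlg in TSK was at 115 CPM in cells with an S100 share of 0.5 to 1%, 234 CPM from 1 to 2%, 296 CPM from 2 to 5% and 2660 CPM at 5% or more. Wfdc21 went from 115 to 192, 255 and 1445 CPM over the same bands, and Mmp8 stood at 297 CPM in the top band. The 5 WT cells at 5% or more had 94.1 CPM of Retnlg, 141 CPM of Wfdc21 and no UMI of Mmp8. In the 3 lower bands WT stood at 697, 400 and 113 CPM of Retnlg, from 7, 6 and 3 UMIs, so TSK was not higher in each of them. The bands are cut on the genes of the rule, so the change along them is a description.

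**Figure D4:**
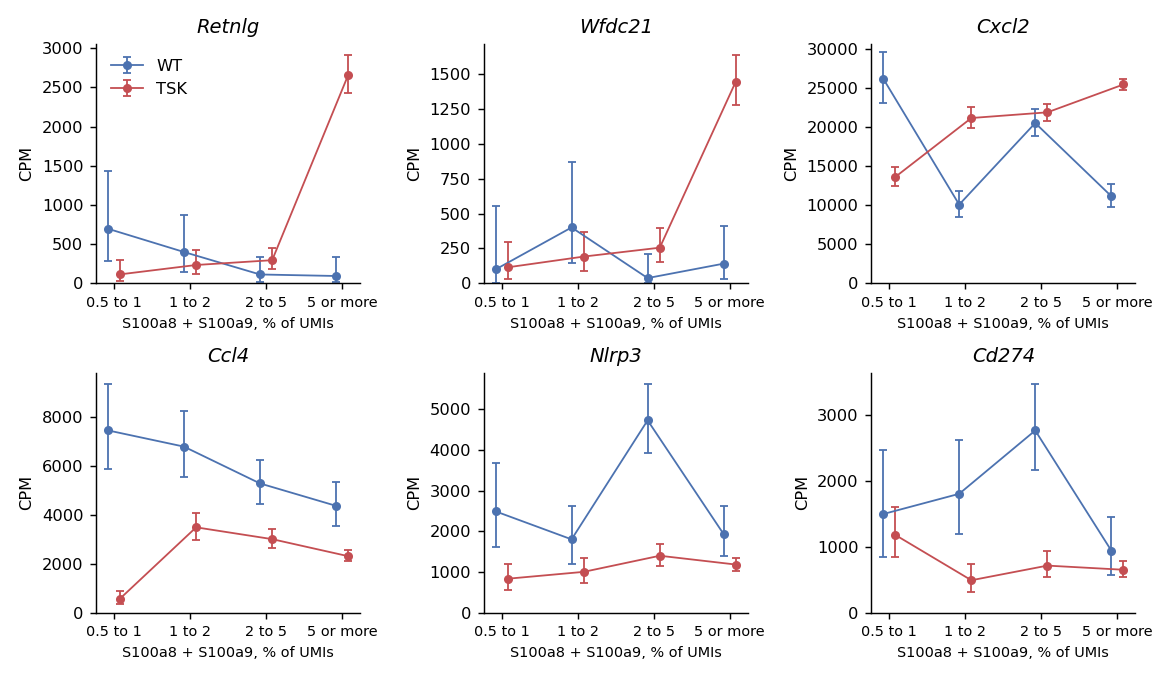
CPM of 6 genes by the S100a8 and S100a9 share of the cell (x axis, percent of UMIs), for WT (blue) and TSK (red) neutrophils of up to 6000 UMIs, with exact Poisson 95% intervals. Retnlg and Wfdc21 reach 2660 and 1445 CPM in the top TSK band and stay at 94.1 and 141 CPM in the 5 WT cells there, whereas Ccl4 and Nlrp3 are higher in WT in each band.

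Interferon-stimulated genes did not move as 1 group. Of 18 on the list 16 reached 50 UMIs, with a median of -0.51. Of these 5 were 2-fold or more lower and 2 higher, beside 15.3% and 34.1% of all genes. Without the deep cells 3 of 14 were lower and 2 higher, beside 11.7% and 20.7%, with a median of -0.30. Ifi47 and Gbp2, GTPases induced by interferon-γ, were at 550 and 1458 CPM in WT and 66.3 and 257 CPM in TSK, with log2 ratios of -3.05 (-3.76 to -2.36) and -2.50 (-2.88 to -2.12), or -2.57 and -1.99 without the deep cells. Both were also lower in TSK macrophages, at -1.02 (-1.29 to -0.74) and -1.16 (-1.34 to -0.99). Ifit1, an antiviral RNA-binding protein, was at -1.68 with 51 UMIs in only 5 WT cells, and Isg15, a ubiquitin-like protein, stood at -1.31, and these were -1.16 and -0.78 without the deep cells. Ifitm3 was higher in TSK (1.38, 0.88 to 1.93, or 1.11 without the deep cells), as was Cxcl10, and Ifitm1 stood at 0.59 and Ifitm2 at -0.02. Rsad2 and Slfn4 were at -0.95 and -0.59.

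The list of genes used for neutrophils in tumors was split. Of 24 on the list 19 reached 50 UMIs, with a median of -0.33. Of these 3 were 2-fold higher and 3 lower, beside 34.1% and 15.3% of all genes. Without the deep cells 2 of 18 were higher and 2 lower, beside 20.7% and 11.7%, with a median of 0.06. Cd274, which encodes the checkpoint ligand PD-L1, was at 1857 CPM in WT (1557 to 2198) and 490 CPM in TSK (431 to 554), a log2 ratio of -1.92 (-2.23 to -1.61), or -1.42 without the deep cells. It was found in 15 of 19 WT and 78 of 166 TSK cells, although 1 WT cell gave 34.1% of the WT UMIs. In macrophages Cd274 was at 0.02 (-0.15 to 0.19). Nos2, the inducible nitric oxide synthase, had no UMI in WT and 85 UMIs in 35 TSK cells, at least 2.01 higher on the log2 scale when the 0 is set to 3 UMIs. Spp1, which encodes osteopontin, was at 2.74, but 58.4% of its TSK UMIs came from 1 cell and 93.5% of its WT UMIs from another, and without the deep cells it was 0.71. Cd63 likewise went from 1.40 to 0.50. Arg2, an arginase, was at -0.68 (-1.14 to -0.18), Ptgs2, the prostaglandin-making cyclooxygenase, at -0.92, and Vegfa at 0.70 with an interval that includes 0.

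**Figure D5:**
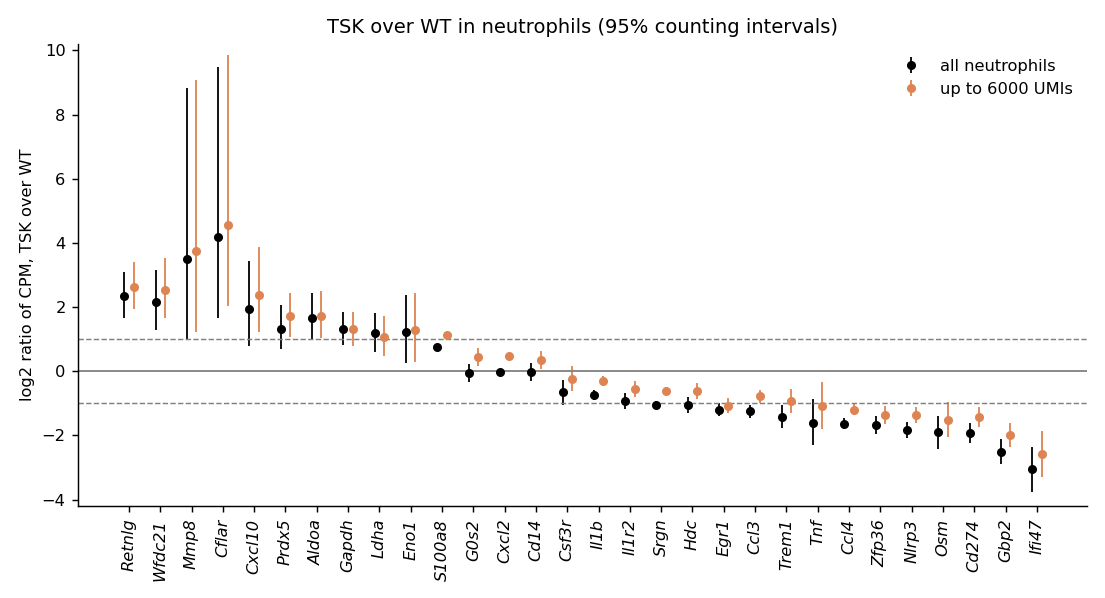
Log2 ratio of CPM, TSK over WT, in 30 genes of the lists, over all neutrophils (black) and over those of up to 6000 UMIs (orange), with 95% counting intervals and dashed lines at 2-fold. Retnlg, Wfdc21, Mmp8 and Cflar lie at 2.15 or more, Cxcl2 near 0, and Nlrp3, Osm, Cd274, Gbp2 and Ifi47 at -1.83 or less over all neutrophils.

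Of 14 receptors that steer neutrophils 8 reached 50 UMIs, with 7 below 0 and a median of -0.71. Leaving out the deep cells, 5 of 8 lay below 0 with a median of -0.26. Over all cells 1 of the 8 was 2-fold lower, beside 15.3% of all genes, and without the deep cells none was. Cxcr2 was at 591 and 324 CPM (-0.87, -1.36 to -0.35), Csf3r at 949 and 601 CPM (-0.66, -1.04 to -0.26), and Ccr1, a receptor of CCL3, at 1458 and 729.6 CPM. Ccrl2, which binds chemerin without signaling, was the 2-fold lower gene at -1.06, and at -0.64 without the deep cells. Without the deep cells Cxcr2 was at -0.49 and Csf3r at -0.24, with intervals that include 0 (-0.99 to 0.04 and -0.63 to 0.16). Fpr1 and C5ar1, receptors for formyl peptides and complement, were at 0.28 and -0.10 with intervals that include 0. Of 8 adhesion genes 7 lay below 0 with a median of -0.53, and without the deep cells 6 of 8 with a median of -0.18. Itgb2 (-0.99) and Icam1 (-0.98) were just short of 2-fold lower. Only Cd44, the hyaluronan receptor, was 2-fold lower (-1.10), beside 15.3% of all genes. Without the deep cells it was not (-0.77). Itgam, an integrin of neutrophil recruitment, was at 0.00. Among 12 Fc and pattern receptors Trem1 and Trem3, which amplify inflammatory signals, were 2-fold lower (-1.42 and -1.58), beside 15.3% of all genes. Without the deep cells Trem3 stayed past 2-fold (-1.16) and Trem1 did not (-0.94). Cd14, Clec4e and Fcgr3 lay between -0.02 and 0.20, and Clec4d stood at -0.74. Over the 12 receptors 9 lay below 0 with a median of -0.31, and without the deep cells 4 did, with a median of 0.14.

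Among 10 measured survival genes 1 was 2-fold higher and 2 were lower, beside 34.1% and 15.3% of all genes. Their median was -0.58, or -0.20 without the deep cells. Mcl1, on which neutrophil survival depends, was at 2434 and 1582 CPM (-0.62), or -0.20 without the deep cells. Cflar, an inhibitor of caspase-8, had 1 UMI in WT and 127 UMIs in 69 TSK cells, a log2 ratio of 4.17 with an interval from 1.67 to 9.49. Socs3 and Pim1, targets of cytokine signaling, were the 2-fold lower genes at -1.18 and -1.01, and neither stayed past 2-fold without the deep cells (-0.75 and -0.57). Of 14 transcription factors Egr1 (-1.20) and Atf3 (-1.09) were 2-fold lower and Klf2 (1.30) higher, beside 15.3% and 34.1% of all genes. Egr1 stayed past 2-fold without the deep cells (-1.07), and Atf3 (-0.83) and Klf2 (0.93) did not. Cebpb, the C/EBP factor of emergency granulopoiesis, was at -0.45, or 0.00 without the deep cells. Of 12 stress genes 3 were 2-fold higher and 3 lower, beside 34.1% and 15.3% of all genes. Their median was 0.03, or -0.43 without the deep cells. Hspa1a and Hspa1b, near-identical copies, had 3 and 1 UMIs, each in 1 WT cell, and 108 and 71 UMIs in 19 and 17 TSK cells. Their ratios were 2.35 and 3.33, or 2.91 and 3.86 without the deep cells, whereas Hsp90aa1 was at -0.74. Dusp1, an early-response phosphatase, was at -1.28 and Junb at -0.88, or -0.81 and -0.47 without the deep cells.

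Of 20 glycolysis and hypoxia genes 17 reached 50 UMIs, with a median of 0.48, or 0.78 without the deep cells, and none 2-fold lower. Over all cells 5 of 17 were 2-fold higher, a share below the 34.1% of all genes, and without the deep cells 6 of 17, beside 20.7% of all genes. Aldoa, an aldolase, was at 248 CPM in WT (147 to 391) and 786 CPM in TSK (711 to 867), a log2 ratio of 1.67 (0.99 to 2.44) that was 1.72 without the deep cells. Gapdh was at 468 and 1165 CPM (1.32, 0.82 to 1.86), Ldha, which makes lactate, at 1.19, Eno1 at 1.23 and Pgk1 at 1.04, and these 4 lay between 1.07 and 1.31 without the deep cells. The glucose transporters Slc2a1 and Slc2a3 were at -0.96 and -0.36. In macrophages the same 17 genes had a median of 0.48 as well, with Aldoa at 0.37 and Gapdh at 0.48.

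Oxidative burst genes showed no common direction, with a median of -0.06 over 10. The NADPH oxidase subunits Cyba and Ncf1 were at 0.81 and 0.75, each with an interval that includes 0. Prdx5, a peroxiredoxin, was higher in TSK (1.33, 0.68 to 2.06), as was Gpx1, a glutathione peroxidase (1.61), both also past 2-fold without the deep cells (1.71 and 1.19), and Txnrd1 and Hmox1, antioxidant enzymes induced by Nrf2, were lower at -1.57 and -1.41, or -1.67 and -0.93 without the deep cells. Hmox1 was higher in TSK macrophages, at 1.29 (1.17 to 1.41).

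Ribosomal protein genes held the highest ratios. The 10 highest among genes with at least 10 UMIs in each library were Rpl37, Rps28, Rps21, Rpl39, Rpl27a, Rps27a, Rpl32, Rpl41, Rps16 and Rplp1, from 3.90 to 3.10, and all 80 measured ribosomal genes were 2-fold or more higher, with a median of 3.54. Without the deep cells 73 of 78 were 2-fold higher, with a median of 2.22. Rpl37 was at 179 CPM in WT and 2672 CPM in TSK neutrophils and, in the other cells, at 1918 and 5207 CPM, a ratio of 1.44, so the direction was shared by the rest of the libraries. Ribosomal genes have many processed copies in the genome, which may divide their reads. Without them 30.7% of the remaining 1554 genes were 2-fold higher in TSK, with a median of 0.07.

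The lowest ratios belonged to Cc2d2b, Ints6, Dock4, Ifi47, Fgl2, Pak1, A530013C23Rik, Pdpk1, Ing3 and Dhx40, from -4.11 to -2.62. For Cc2d2b the WT library gave 71 UMIs, from 5 cells with 40.8% in 1 of them, and the TSK library 29 UMIs from 12 cells. Ints6, a subunit of the Integrator complex that ends transcription of small nuclear RNAs, was found in 11 WT cells with 92 UMIs in all and in 23 TSK cells with 52 (-3.64, -4.16 to -3.13). Fgl2, a secreted fibrinogen-like protein, was at -2.97 and Pak1, a kinase of cell movement, at -2.86 with 34 UMIs in 4 WT cells. The highest cell of each gene gave 76.5% of the WT UMIs of Pak1, 67.6% of Pdpk1 and 43.2% of Dock4. For the other genes among the lowest this share lay between 19.5% (Fgl2) and 40.8% (Cc2d2b). In the other cells of the libraries Ints6 was at -0.57, Dock4 at -1.08 and Pak1 at 0.39.

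Of 10 proliferation genes 4 reached 50 UMIs. Top2a, a topoisomerase of dividing cells, had no UMI in WT and 97 in TSK, 55.7% of them in 1 cell, and the 4 genes had a median of 2.36 that was 0.89 over 2 genes without the deep cells. Of the monocyte markers, Fn1 was at 4.24 (2.77 without the deep cells) with 2 WT and 266 TSK UMIs, out of 48 and 453 UMIs of the whole list. Cx3cr1 was at -1.82 with 28 and 56 UMIs, or -1.40 without the deep cells.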

How the data were processed

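For each library the authors deposited a filtered matrix of UMI counts made with Cell Ranger (version 7.1.0 in the file headers, 7.1.1 in the submitters' processing notes), aligned to mm10. The counts are whole numbers without normalization. Of 32285 gene IDs 99.6% are in GENCODE M21 (GRCm38), which gave the coordinates. Cells with at least 200 genes and 500 UMIs, at most 10% mitochondrial UMIs and a barcode found in only 1 library were kept, with no upper limit and no doublet caller. Macrophages had 3 or more C1q UMIs and no Cd3d, Cd3e, Cd3g or Trac, T cells 2 or more of the latter, and monocyte-like cells fewer than 3 C1q UMIs, a Ptprc UMI and 3 or more UMIs of Lyz2, Csf1r and Ccr2.

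UMIs were summed per library, and levels are CPM. Intervals are exact binomial (shares), Poisson (levels) and conditional binomial (ratios), all at 95%, using Python 3.11.15, NumPy 2.4.6, pandas 2.3.3 and SciPy 1.17.1, with figures in Matplotlib 3.10.9. A count of 0 was set to 3 for bounds. Sex-linked genes were left out, and some genes are not reported here. The ratio calculation was tested on simulated data. Named genes are the rule's markers, the 15 highest over other cells, the 10 highest and 10 lowest ratios, and the list members with most UMIs or a 2-fold difference. Members and lists were chosen with earlier results of these data known, and the genes whose promoters are shown after their values were seen. Alternatives changed the limits on UMIs and mitochondrial share, the S100 threshold, markers, denominators, weighting, scaling and count filters.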

Additional observations from a re-analysis of the deposited data

Results flagged for a closer look

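Barcodes that met the neutrophil rule but exceeded 10% mitochondrial UMIs were outside the comparisons and held a signal: 4 in WT and 11 in TSK. With the limit raised to 20%, neutrophils were 1.47% of cells in WT and 5.46% in TSK, a ratio of 3.71.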

How the results depend on the processing

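The ratio of neutrophil shares kept its direction and stayed within its counting interval under all 12 alternatives, on the log2 scale from 1.89 (up to 20% mitochondrial UMIs) to 2.61 (cells with Ptprc) against 2.09. The number of genes 2-fold or more higher in TSK was 557. It was 236 with at most 10000 UMIs and genes per cell, 294 and 192 at S100 thresholds of 1% and 2%, 213 without cells holding markers of another type, and 228 without neutrophils over 6000 UMIs, an alternative chosen after seeing the data. It was 1064 and 250 with at least 20 or 100 UMIs per gene. The number 2-fold or more lower was 250 and became 126, 150, 103, 135 and 129 under the same cell choices, 166 with equal weight for each cell, and 444 and 151 under the count filters. Fewer genes were tested under each cell choice. Of 70 listed or named genes past 2-fold, 68 kept their direction under every alternative and 44 stayed past 2-fold. Hspa8 (1.03) reversed to -0.15 with at most 10000 UMIs and genes, -0.41 at an S100 threshold of 2%, -0.14 without cells holding markers of another type, -0.18 without cells over 6000 UMIs and -0.049 with equal weight. Krt18 (3.66) changed sign to -0.26, -0.98, -0.12 and -0.20 under the first 4 of these. Its WT side is 1 UMI, and 4 TSK UMIs remained without cells over 6000 UMIs, so its direction there is not known. Both changes go with the deep TSK cells, and the cause was not tested. Scaling by the median gene moved every ratio by 0.18 and the split of calls from 557 higher and 250 lower to 527 and 333. Values rest on 19 WT cells, and genes under 10 WT UMIs have wide intervals. No paired analysis was possible because each genotype has 1 library.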

Other observations

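Most Retnlg UMIs of the WT library lay outside the neutrophils, which was noticed after the values were seen. Of 166 Retnlg UMIs in kept WT cells 18 fell in the neutrophils and 148 in 25 other cells, against 642 of 691 in TSK. The 11 other WT cells with 5 or more Retnlg UMIs held 118 of them, at a median depth of 779 UMIs (547 to 29044). These 11 cells had 1 UMI of S100a8 or S100a9 in all, 2 of Csf3r and 5 of Il1b, and 17 of the 34 UMIs of Prg2, an eosinophil granule protein, in the kept WT cells. They also held 32 UMIs of Cd24a and 74 of Ccl6, and of the eosinophil markers 4 of the 25 UMIs of Ccr3 and 1 of the 7 of Siglecf. Epx had 1 UMI in all kept WT cells and none in these, too few to tell. In the WT neutrophils Prg2 had 0 UMIs.

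In TSK 4 cells reached the S100 threshold but were left out for a UMI of Cd3d, Cd3e, Cd3g or Trac, and in WT none.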
